A study of Arabidopsis thaliana with 36 samples.

Results

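Transcripts of 2 nitrate transporter genes, NRT2.5 (locus AT1G12940) and AT3G21670, were followed over 36 ATH1 arrays of Arabidopsis thaliana. The members are the 2 probe sets, of 22810 on the array, that name NRT2.5 alone or AT3G21670 alone. Both genes were chosen by their low level in the xylem and cork of the MYB50 knockout in earlier results of these arrays, so every difference of these genes that uses MYB50 knockout arrays is given as a description and was not tested. Tests were run on contrasts without those arrays. Some of these contrasts use the Col-0 xylem and cork arrays, against which that level was low. Each group had 3 arrays, 1 per RNA sample, and each RNA sample pooled 200 to 400 plants.

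The tissue groups were xylem and cork from a MYB50 knockout, a MYB61 knockout and Col-0. The hypocotyl groups were abi1 and aba1, both in the Ler background, with Ler itself, and then max4 and axr1 with Col-0. The labels state no background for max4, axr1 or either knockout, and Col-0 was taken as their wild type. All plants grew on compost at 22 °C under 24 h of light, and the labels give neither their age nor a nitrogen supply. The labels name no allele for any mutant and do not say how xylem and cork were separated or whether samples of a group came from separate sowings, so p-values measure the spread between pools, which may be technical. The first MYB50 knockout cork array is labelled as a repeat.

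Nitrate enters plant cells through membrane transporters that move it together with protons. NRT2.5 belongs to the small NRT2 family, which works at low external nitrate, and it is known in Arabidopsis as a gene induced by long nitrogen starvation in roots and leaves. AT3G21670 carries the name NPF6.4 in the RefSeq gene table and belongs to the NRT1/PTR (NPF) family, whose members carry nitrate, peptides, hormones or glucosinolates. MYB50 and MYB61 are related transcription factors of the MYB class. ABI1 acts in the response to abscisic acid and ABA1 in its synthesis, MAX4 makes a precursor of strigolactone, and AXR1 is needed for the auxin response.

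The deposited values were intensities already scaled by the authors, with a 2% trimmed mean of 100.01 on every array. The median probe set stood at 35.1 to 44.9 depending on the array, and values below 16 made up 29.6 to 37.1% of an array. Each of the 36 arrays correlated best with an array of its own group, with within-group correlations between 0.958 and 0.993. No probe set in the table used here names the gene of any of the mutants alone, so the genotypes could not be checked on their own transcripts. Of the marker lists, 3 of 16 xylem, 4 of 9 phloem, 1 of 11 cork and 4 of 8 leaf genes had a named probe set, and none of these was at 0 on any array. Summed marker intensities differed between labelled tissues in Col-0: phloem markers summed to 102 to 110 in xylem and 538 to 548 in cork, and the cork marker FACT, a suberin gene, lay at 13.8 to 21.4 in xylem and 109 to 121 in cork. Xylem markers summed to 121 to 338 in xylem and 81.2 to 109 in cork.

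Both genes spanned a wide range. NRT2.5 had group means between 34.6 and 451, and AT3G21670 between 50.2 and 1175. Ler hypocotyl, max4 hypocotyl and every Col-0 or MYB61 knockout tissue held both genes at a high level. Both genes were low in Col-0 whole hypocotyl and intermediate in aba1 and axr1 hypocotyl. They were also low in both tissues of the MYB50 knockout, by which they were chosen. Counted from the highest group mean, abi1 hypocotyl stood at place 7 for NRT2.5 and place 3 for AT3G21670. The number of arrays and the low signal at the bottom of the scale limit how finely the lowest groups can be ordered.

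**Figure D1:**
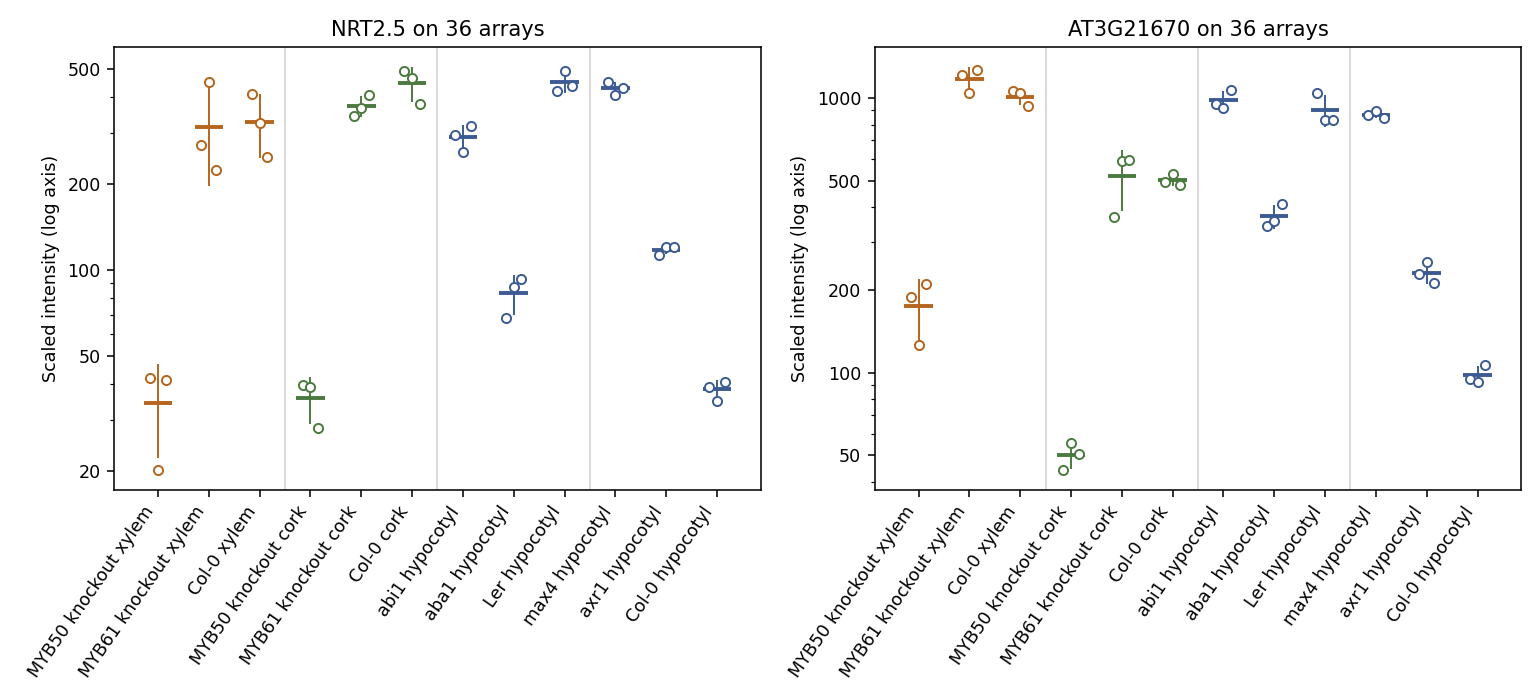
Scaled intensity (log axis) of NRT2.5 (left) and AT3G21670 (right) on each array, with the group mean as a bar and 1 SD as a line; colours mark xylem, cork and hypocotyl. NRT2.5 is lowest in MYB50 knockout xylem (mean 34.6), MYB50 knockout cork (35.8) and Col-0 hypocotyl (38.4), and AT3G21670 in MYB50 knockout cork (50.2), Col-0 hypocotyl (97.9) and MYB50 knockout xylem (175).

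Ordered by group mean, NRT2.5 ran from Ler hypocotyl at 451 ± 38.9 through Col-0 cork at 447 ± 61.2, max4 hypocotyl at 430 ± 23.0, MYB61 knockout cork at 373 ± 32.3, Col-0 xylem at 328 ± 81.9, MYB61 knockout xylem at 316 ± 120 and abi1 hypocotyl at 290 ± 29.1 (SD, n = 3 each). Arrays of neighbours among these 7 groups overlapped, so their order is not resolved step by step. The next groups, axr1 hypocotyl at 118 ± 4.34 and aba1 hypocotyl at 82.9 ± 13.1, each stood apart from the neighbours above and below. Col-0 hypocotyl at 38.4 ± 3.00, MYB50 knockout cork at 35.8 ± 6.59 and MYB50 knockout xylem at 34.6 ± 12.4 overlapped at the bottom.

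AT3G21670 was highest in MYB61 knockout xylem at 1175 ± 115, followed by Col-0 xylem at 1011 ± 68.0, abi1 hypocotyl at 981 ± 80.0, Ler hypocotyl at 904 ± 123 and max4 hypocotyl at 870 ± 25.0 (SD, n = 3 each), and neighbours among these 5 groups overlapped. MYB61 knockout cork at 518 ± 129 and Col-0 cork at 502 ± 23.2 came next and overlapped each other. Below them by mean came aba1 hypocotyl at 370 ± 36.8, axr1 hypocotyl at 230 ± 20.7 and MYB50 knockout xylem at 175 ± 44.2. Col-0 hypocotyl at 97.9 ± 7.41 and MYB50 knockout cork at 50.2 ± 5.56 were lowest. The dimmest MYB61 knockout cork array, at 369.0, lay within the aba1 range of 343.0 to 412.2. Otherwise each of these lower groups stood apart from those next to it, axr1 and MYB50 knockout xylem only just (211.1 against 211.0). Unlike NRT2.5, this gene thus had distinct levels in the xylem and cork of the MYB50 knockout.

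The low values in the MYB50 knockout, by which the genes were chosen, were present on every array of both tissues. NRT2.5 read 42.1, 20.2 and 41.4 in MYB50 knockout xylem, against 411.5, 325.5 and 247.8 in Col-0 xylem. In cork it read 39.9, 39.3 and 28.2 in the MYB50 knockout, against 494.8, 467.1 and 377.7 in Col-0. The groups were far apart in both tissues: the means were 9.50-fold lower in xylem and 12.5-fold lower in cork, with log2 differences of -2.77 and -3.16 (SE 0.18 each). All log2 differences here are of the intensity plus 16, a pseudocount that shrinks the differences of dim genes.

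AT3G21670 read 188.2, 125.7 and 211.0 in MYB50 knockout xylem, against 1056.1, 1043.4 and 932.5 in Col-0 xylem. In cork it read 44.4, 55.5 and 50.6 in the MYB50 knockout, against 493.4, 527.8 and 483.7 in Col-0. Its means were 5.78-fold lower in knockout xylem (log2 -2.45, SE 0.14) and 10.0-fold lower in knockout cork (log2 -2.97), again with no overlap. Without MYB50 knockout xylem replicate 2, its dimmest array of that group, the xylem difference was -2.25. Among 15924 probe sets ordered by log2 difference, NRT2.5 stood at place 3 from the bottom in xylem and 6 in cork, and AT3G21670 at 11 and 7. Of all probe sets, 44.6% passed the test of MYB50 knockout against Col-0 in xylem (20.4% higher, 24.2% lower) and 42.2% in cork (21.3% higher, 20.9% lower), by limma at adjusted p below 0.05. Since these contrasts chose the genes, nothing is read from those places. The MYB50 difference in xylem minus that in cork was 0.39 for NRT2.5 (SE 0.26) and 0.52 for AT3G21670 (SE 0.20). Averaged over both tissues, the MYB61 knockout lay 2.80 above the MYB50 knockout for NRT2.5 and 2.82 above it for AT3G21670.

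The MYB50 knockout tissues also differed from Col-0 in their marker sums. Xylem markers summed to 997 to 1460 in MYB50 knockout xylem, against 121 to 338 in Col-0 xylem, and to 151 to 197 in knockout cork, against 81.2 to 109 in Col-0 cork. Phloem markers summed to 1168 to 1299 in knockout cork, against 538 to 548 in Col-0 cork, leaf markers to 1217 to 1288 against 661 to 864, and FACT lay at 216 to 242 against 109 to 121. The phloem sum was carried by CLE41, a signal peptide gene, at a mean of 965 in knockout cork and 354 in Col-0 cork, while the sugar transporter SWEET11 lay the other way at 61.3 and 109. Of the 4 phloem markers, 3 were higher and 1 lower in knockout cork by limma, where 21.3% of all probe sets were higher and 20.9% lower. The part of these markers in the low NRT2.5 and AT3G21670 values was not tested, and in bulk tissue fewer cells of a type and less RNA per cell cannot be told apart.

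In the MYB61 knockout, neither gene passed the test in either tissue. NRT2.5 read 272.2, 451.6 and 224.0 in MYB61 knockout xylem, against 411.5, 325.5 and 247.8 in Col-0 xylem, and the groups overlapped. The log2 difference was -0.08 (95% interval -0.46 to 0.29, limma adjusted p = 0.938). In cork it read 343.7, 367.9 and 407.7 in the MYB61 knockout, against 494.8, 467.1 and 377.7 in Col-0, a log2 difference of -0.24 (interval -0.61 to 0.13, limma adjusted p = 0.475). MYB61 knockout xylem replicate 2 was the high array of NRT2.5, and the xylem difference changed sign without Col-0 xylem replicate 1 (0.09) or MYB61 knockout xylem replicate 3 (0.12).

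AT3G21670 read 1211.6, 1046.0 and 1268.1 in MYB61 knockout xylem, against 1056.1, 1043.4 and 932.5 in Col-0 xylem. The log2 difference was 0.21 (interval -0.08 to 0.50, limma adjusted p = 0.62). In cork it read 369.0, 588.9 and 596.1 in the MYB61 knockout, against 493.4, 527.8 and 483.7 in Col-0, a log2 difference of 0.01 (interval -0.28 to 0.30, limma adjusted p = 0.97), whose sign changed without Col-0 cork replicate 3 or either of MYB61 knockout cork replicates 2 and 3 (-0.10 at the lowest). The groups overlapped in both tissues. The intervals leave room for changes of up to about 0.6 on the log2 scale and do not show that the levels are equal. Over all probe sets, 1.88% passed in xylem and 8.00% in cork. The MYB61 effects in xylem and cork did not differ past the threshold either, with a difference of effects of 0.16 for NRT2.5 (interval -0.36 to 0.68, limma adjusted p = 0.897) and 0.20 for AT3G21670 (interval -0.21 to 0.61, limma adjusted p = 0.82), where 0.113% of probe sets passed. These signs changed too, for NRT2.5 without Col-0 xylem replicate 3 (-0.02) or MYB61 knockout xylem replicate 2 (-0.12) and for AT3G21670 without MYB61 knockout cork replicate 1 (-0.022).

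The genes parted between xylem and cork. AT3G21670 was higher in xylem in every genotype, whereas NRT2.5 lay on the other side or near 0 and did not pass the test. In Col-0, AT3G21670 averaged 1011 ± 68.0 in xylem and 502 ± 23.2 in cork (SD, n = 3 each), 2.01-fold higher with no overlap (log2 0.99, SE 0.14, limma adjusted p = 1.09e-06). NRT2.5 averaged 328 ± 81.9 in Col-0 xylem and 447 ± 61.2 in Col-0 cork with overlapping arrays (log2 -0.44, SE 0.18, limma adjusted p = 0.0506). Of all probe sets, 40.2% passed in this contrast. NRT2.5 lay at the threshold. Of its values recomputed under other settings or with an array left out, 6 passed and 10 did not. Its limma adjusted p fell to 0.0132 without Col-0 xylem replicate 1, its brightest xylem array. It fell to 0.0299 without Col-0 cork replicate 3, its dimmest cork array.

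The knockouts were compared in the same way, a choice made after the values were seen. In the MYB61 knockout, AT3G21670 was 2.27-fold higher in xylem than in cork (log2 1.18, SE 0.14, limma adjusted p = 4.01e-08), and NRT2.5 differed by -0.29 (interval -0.66 to 0.09, limma adjusted p = 0.246), where 33.8% of probe sets passed. Without MYB61 knockout xylem replicate 2, the NRT2.5 difference there was -0.56 and passed. Of the recomputed values of this difference, 2 passed and 14 did not. In the MYB50 knockout, described without a test, AT3G21670 was 3.49-fold higher in xylem than in cork (log2 1.50) although its level was low in both, and NRT2.5 differed by -0.06. Without MYB50 knockout xylem replicate 2 the NRT2.5 difference was 0.17.

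An exact permutation test over arrays, shuffled within genotype, was run on the tissue difference averaged over genotypes. Over Col-0 and the MYB61 knockout, which give 400 arrangements, the mean log2 difference of AT3G21670 was 1.09 (two-sided exact p = 0.005, the smallest possible; 0.0375 after Benjamini-Hochberg adjustment over 15 such tests). That of NRT2.5 was -0.37 (two-sided exact p = 0.075, adjusted 0.115). The difference between the genes' tissue differences was 1.45 (two-sided exact p = 0.005, adjusted 0.0375), larger than the spread between arrays of these 2 genotypes. A p this low needs both, since 3 arrays against 3 reach no lower than 0.1. The MYB61 knockout comparison was added after the values were seen. Scanner background was 85.4 to 124 in Col-0 xylem and 69.4 to 75.5 in Col-0 cork. In the MYB61 knockout it was 94.3 to 106 in xylem and 89.4 to 121 in cork. Its part was not tested.

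In hypocotyls with an abscisic acid defect, both genes fell in aba1, the mutant in hormone synthesis, whereas abi1, the mutant in hormone response, had a smaller difference in NRT2.5 and none past the threshold in AT3G21670. NRT2.5 read 68.1, 87.6 and 93.1 in aba1, against 420.8, 495.1 and 438.0 in Ler. It fell 5.44-fold with no overlap (log2 -2.25, SE 0.18, limma adjusted p = 4.76e-11) and stood at place 7 from the bottom of 15924 probe sets ordered by log2 difference. AT3G21670 read 343.0, 356.0 and 412.2 in aba1, against 1046.4, 832.5 and 833.4 in Ler. It fell 2.44-fold, also without overlap (log2 -1.25, SE 0.14, limma adjusted p = 4.57e-08). In this contrast 27.1% of probe sets passed.

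In abi1, NRT2.5 read 294.3, 258.6 and 316.3, against 420.8, 495.1 and 438.0 in Ler. The arrays did not overlap and the mean was 1.56-fold lower (log2 -0.61, SE 0.18, limma adjusted p = 0.0258), where 10.4% of probe sets passed. This call rested on few arrays: the adjusted p was 0.112 without Ler replicate 2, 0.0616 without Ler replicate 3, 0.126 without abi1 replicate 2 and 0.0594 with a pseudocount of 1. AT3G21670 read 950.4, 921.6 and 1072.3 in abi1, overlapping its Ler arrays at 1046.4, 832.5 and 833.4 (log2 0.12, interval -0.17 to 0.41, limma adjusted p = 0.67).

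Set directly against each other, abi1 was above aba1 for both genes. NRT2.5 was 3.49-fold higher in abi1 than in aba1 (log2 1.63, SE 0.18, limma adjusted p = 1.22e-07) and AT3G21670 2.65-fold higher (log2 1.37, SE 0.14, limma adjusted p = 3.87e-08), with all 3 abi1 arrays above all 3 aba1 arrays and 15.4% of probe sets past the threshold. The response of AT3G21670 minus that of NRT2.5 was 1.00 on the log2 scale in aba1, where both fell, and 0.73 in abi1, where NRT2.5 fell and AT3G21670 had a log2 difference of 0.12 that did not pass. With 3 arrays against 3, the two-sided exact permutation test of such a difference can reach no lower than 0.1, which both gave. FACT lay at 103 to 122 in abi1, 133 to 180 in aba1 and 265 to 276 in Ler. Xylem marker sums were 91.1 to 119 in abi1, 102 to 117 in aba1 and 131 to 135 in Ler. Of the 3 xylem markers, 0 passed by limma in abi1 or aba1, where 10.4% and 27.1% of all probe sets did. Phloem markers summed to 510 to 623 in abi1, 403 to 475 in aba1 and 464 to 637.5 in Ler. Leaf markers summed to 298 to 475, 365 to 425.5 and 488 to 537 in the same groups. The ratio of actin signal at the 3' end to that at the 5' end, a sign of RNA quality, was 1.49 to 1.85 in abi1, 1.36 to 1.45 in aba1 and 1.245 to 1.29 in Ler, 3 ranges without overlap. The part of these values in the transporter levels was not tested.

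Against Col-0 hypocotyl, both genes rose in max4 and, less far, in axr1. NRT2.5 read 451.6, 405.8 and 432.1 in max4 and 112.7, 120.5 and 119.9 in axr1, against 39.3, 35.1 and 40.9 in Col-0. It was 11.2-fold higher in max4 (log2 3.03, SE 0.18, limma adjusted p = 2.17e-14) and 3.06-fold higher in axr1 (95% interval of the log2 difference 0.93 to 1.67, limma adjusted p = 1.15e-06). AT3G21670 read 866.3, 896.8 and 847.3 in max4 and 227.7, 252.3 and 211.1 in axr1, against 95.1, 92.3 and 106.3 in Col-0. It was 8.89-fold higher in max4 (log2 2.96, SE 0.14, limma adjusted p = 2.05e-16) and 2.35-fold higher in axr1 (log2 1.11, SE 0.14, limma adjusted p = 2.61e-07). For both genes the max4, axr1 and Col-0 arrays formed 3 groups without overlap.

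Between the mutants, max4 was 3.65-fold above axr1 for NRT2.5 (log2 1.74, SE 0.18, limma adjusted p = 8.99e-09) and 3.78-fold above it for AT3G21670 (log2 1.85, SE 0.14, limma adjusted p = 1.81e-11). Many probe sets passed in these contrasts: 44.6% for max4, 36.6% for axr1 and 32.2% between them. The genes' responses differed from each other by -0.07 in max4 (two-sided exact permutation p = 0.4) and -0.19 in axr1 (p = 0.1 by the same exact test, the smallest possible). Marker sums moved as well: xylem markers summed to 147 to 169 in max4, 487 to 537 in axr1 and 261 to 270 in Col-0, and phloem markers to 433 to 446, 535 to 559 and 831 to 864 in the same groups. FACT was higher in both mutants, at 88.9 to 105 in max4 and 137 to 198 in axr1, against 61.9 to 76.4 in Col-0. Its order was the reverse of the transporters, which were higher in max4 than in axr1. Leaf markers summed to 363 to 382 in max4 and 725 to 791 in axr1, against 549 to 584 in Col-0. Within the phloem list CLE41 was lower in max4 (252.5 against 614 in Col-0) and OPS, a sieve element gene, higher (62.7 against 33.8). Their part in the transporter values was not tested.

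The wild types themselves were far apart. NRT2.5 averaged 451 ± 38.9 in Ler hypocotyl and 38.4 ± 3.00 in Col-0 hypocotyl (SD, n = 3 each), 11.7-fold higher in Ler (log2 3.10, SE 0.18, limma adjusted p = 4.53e-15) and at place 15 from the top of all probe sets. AT3G21670 averaged 904 ± 123 in Ler and 97.9 ± 7.41 in Col-0, 9.23-fold higher (log2 3.01, SE 0.14, limma adjusted p = 3.03e-17) and at place 23. This is the contrast with the most calls, 57.8% of probe sets. Scanner background was 115 to 132 on the Ler arrays and 64.6 to 89.8 on the Col-0 hypocotyl arrays, without overlap. With background as a covariate both genes kept their direction and their calls, while calls over all probe sets went from 9206 to 7683. The slope of that fit comes from the spread of arrays within the 12 groups. Because Ler and Col-0 do not overlap in background, the adjustment extrapolates this slope between them and cannot fully separate background from ecotype. FACT lay at 265 to 276 in Ler and 61.9 to 76.4 in Col-0 (log2 1.76, limma adjusted p = 8.36e-14), and all 3 xylem markers were lower in Ler, with sums of 131 to 135 against 261 to 270 in Col-0. The actin ratio was 1.245 to 1.29 in Ler and 1.44 to 1.72 in Col-0. The part of the background, of the markers and of the actin ratio in this difference was not tested. Growth conditions beyond those named are not in the labels, so ecotype and any difference in growth cannot be told apart.

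Col-0 whole hypocotyl was also far below the tissues of the same ecotype. NRT2.5 read 39.3, 35.1 and 40.9 in Col-0 hypocotyl, whereas its 6 Col-0 xylem and cork arrays lay between 247.8 and 494.8, and the hypocotyl mean was 10.1-fold lower than the mean of the tissues (log2 -2.86, SE 0.16, limma adjusted p = 3.23e-15). AT3G21670 read 95.1, 92.3 and 106.3 in hypocotyl, against 483.7 to 1056.1 in the tissues, 7.72-fold lower (log2 -2.68, SE 0.12, limma adjusted p = 4.39e-17). Counted from the bottom, NRT2.5 was at place 6 and AT3G21670 at place 8 of 15924 probe sets, in a contrast where 51.2% passed. The hypocotyl value thus did not lie between the values of xylem and cork for either gene. Phloem markers summed to 831 to 864 in Col-0 hypocotyl, against 102 to 548 in the tissues. CLE41 carried this sum, with means of 614 in hypocotyl and 354 in cork. CLE44 lay at 52.9 and 53.1, SWEET11 at 152 and 109, and OPS at 33.8 and 26.8. Xylem marker sums (261 to 270), FACT (61.9 to 76.4) and leaf marker sums (548.5 to 584) in hypocotyl lay within the span of the Col-0 tissues. The part of these markers was not tested. The Col-0 tissue arrays are also those against which the MYB50 knockout was set when the genes were chosen. That choice favours genes that are high on those arrays, so nothing is read from the p-values and places of this contrast. The Col-0 hypocotyl arrays are shared with the max4, axr1 and Ler contrasts. The actin ratio was 1.44 to 1.72 in Col-0 hypocotyl, 1.07 to 1.35 in Col-0 xylem and 1.275 to 1.73 in Col-0 cork. Its part was not tested.

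**Figure D2:**
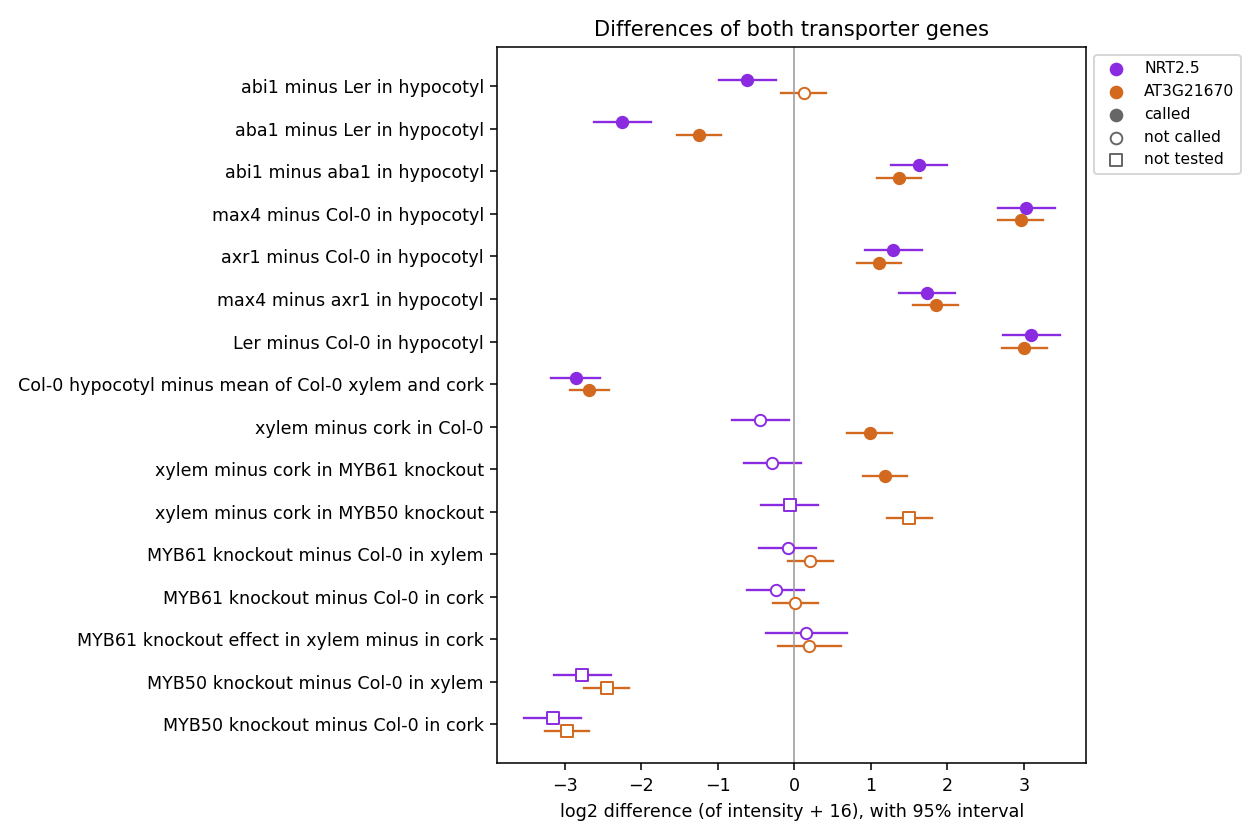
Log2 differences (of intensity plus 16) of NRT2.5 and AT3G21670 in 16 contrasts, with 95% intervals; filled circles passed limma's adjusted p of 0.05, open circles did not, and squares mark the contrasts that use MYB50 knockout arrays, which were not tested. The genes move together in the hypocotyl mutants apart from abi1 and part between xylem and cork, where AT3G21670 lies between 0.99 and 1.50 and NRT2.5 between -0.44 and -0.06.

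The 2 genes had similar patterns over the hypocotyls, though neither was the other's nearest match. Over the 18 hypocotyl arrays Pearson's correlation of their log2 levels was 0.931. Over the whole series it was 0.886 for the 12 group means and 0.875 for the 36 arrays, but both genes were chosen for being low in the MYB50 knockout, so these values partly restate the choice. Without the MYB50 knockout the correlation was 0.841 over 10 group means and 0.822 over 30 arrays. Within the tissues it rested on the MYB50 knockout arrays, at 0.843 over all 18 tissue arrays and -0.526 over the 12 of Col-0 and the MYB61 knockout. The points share arrays, and the comparison without the MYB50 knockout was added after the values were seen. Among 8856 other named probe sets ordered by the correlation of group means, AT3G21670 was at place 18 for NRT2.5 and NRT2.5 at place 53 for AT3G21670. Over the hypocotyl arrays alone, which the choice did not use, the places were 8 and 21.

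**Figure D3:**
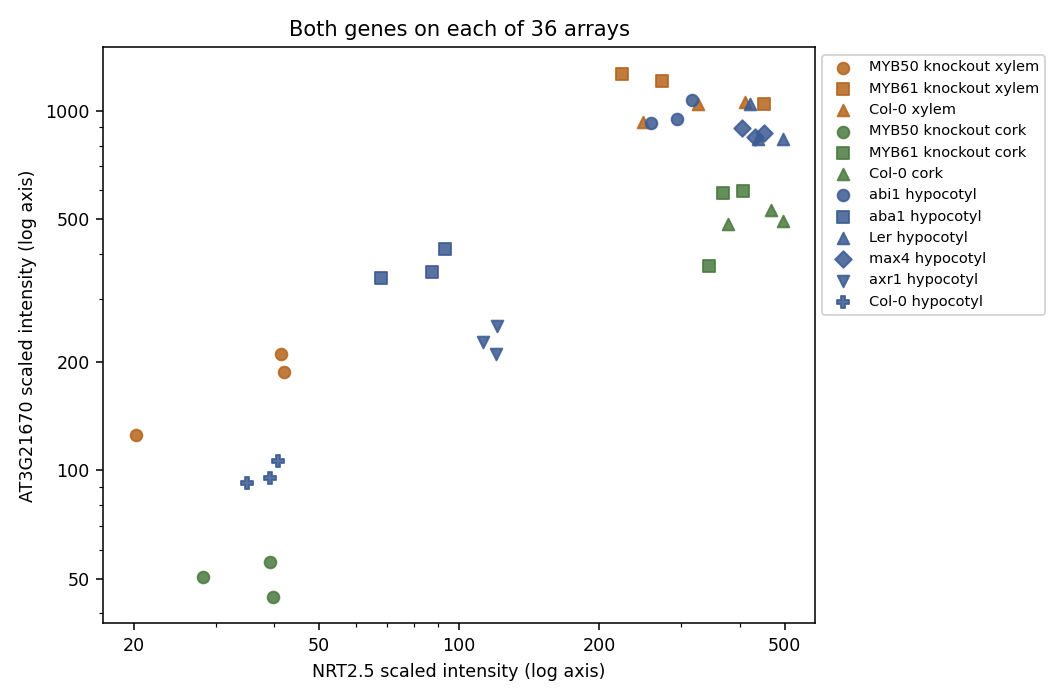
AT3G21670 against NRT2.5 on each of the 36 arrays (both log axes, scaled intensity), with colour for the organ and shape for the group within an organ. The same shape marks other genotypes in the hypocotyls than in xylem and cork. The MYB50 knockout and Col-0 hypocotyl arrays lie at the low end of both genes, axr1 and aba1 in the middle, and the cork arrays of Col-0 and the MYB61 knockout lie below the xylem arrays at a similar NRT2.5 level.

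The genes most like AT3G21670 over the 12 group means, MYB50 knockout included, were AT1G07990 (r = 0.962), SLOMO (0.952), AT4G12070 (0.944), SIZ1 (0.943), AT4G33040 (0.942), AT1G76590 (0.940), AT3G58530, NUP1, AT3G21290 and AT3G03880. SLOMO encodes an F-box protein, SIZ1 a SUMO ligase and NUP1 a nuclear pore protein. Most of these genes varied little: the range of log2 group means was 4.17 for AT3G21670 and between 0.63 and 0.99 for the likest genes other than AT4G33040 (3.03) and AT1G76590 (2.12). Among these 10 genes, AT4G33040 came nearest in the size of its range. It averaged 213 ± 18.1 in MYB50 knockout xylem against 1326 ± 48.2 in Col-0 xylem, and 214 ± 6.49 in Col-0 hypocotyl (SD, n = 3 each). Its log2 difference was -0.96 in aba1 and 1.32 in max4. These groups entered the correlation by which AT4G33040 was picked, so the shared directions partly restate that choice.

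For NRT2.5 the most like were AT3G01400 (r = 0.927), AT1G62310 (0.927), SLOMO (0.924), AT5G10950, AT2G15695, AT3G26560, AT1G21780, AT1G02750, AT2G38090 and AT2G37480 (0.894). Their ranges lay between 0.56 and 1.09 on the log2 scale, against 3.24 for NRT2.5. SLOMO was the gene that stood among the 10 likest of both transporters. These correlations describe 12 groups and were not tested.

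The other nitrogen genes could be followed only in part, because the probe table used here names few of them alone. None of 8 listed NRT2 and NRT3 genes, 24 assimilation genes, 8 anion channels or 19 ammonium and amino acid transporters had such a probe set. Of 51 other NPF family genes 32 had one and 28 passed the filter on low values. In MYB50 knockout xylem 7 of the 28 were higher and 1 lower by limma at adjusted p below 0.05, where 20.4% of all probe sets were higher and 24.2% lower, and the median log2 difference was 0.06 beside -0.02 over all probe sets. In MYB50 knockout cork 5 were higher and 0 lower, where 21.3% and 20.9% of all probe sets were. In aba1, 4 were higher and 5 lower (27.1% of all probe sets passed), in abi1 1 and 1 (10.4%), in max4 7 and 7 (44.6%), in axr1 4 and 2 (36.6%), and in Ler against Col-0 7 and 6 (57.8%). In MYB61 knockout xylem 0 of 28 passed (1.88% of all) and in cork 1 was higher (8.00%). The counts in the hypocotyl contrasts held calls in both directions and are not read as a change of the family.

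**Figure D4:**
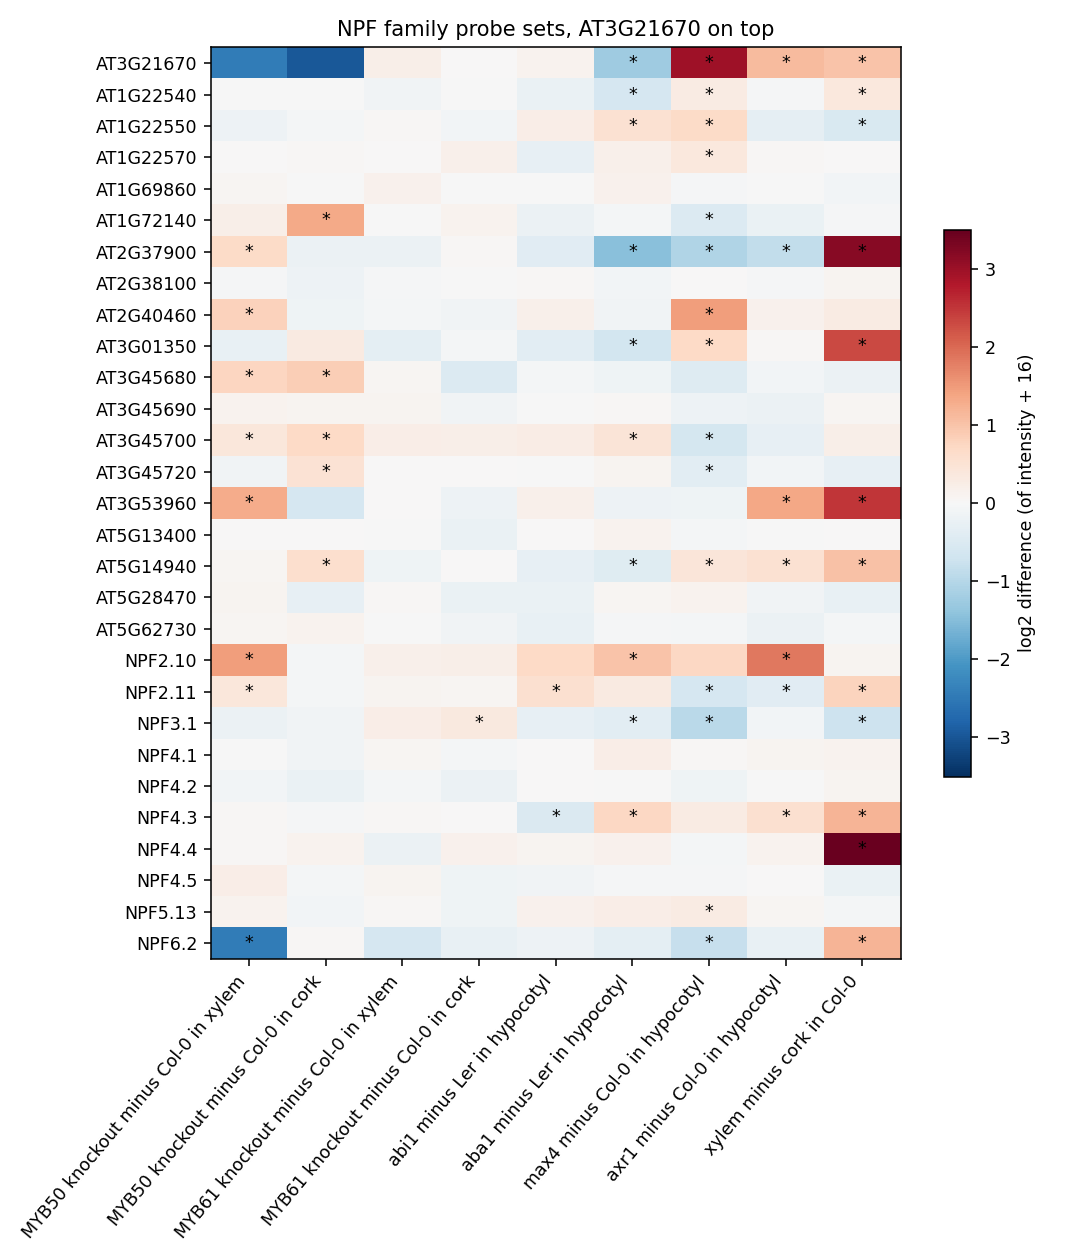
Log2 differences (colour; of intensity plus 16) of AT3G21670, in the top row, and of the 28 other NPF probe sets that passed the filter on low values, in 9 contrasts; stars mark limma adjusted p below 0.05, and the MYB50 knockout contrasts of AT3G21670 were not tested. AT3G21670 is low in both MYB50 knockout tissues (-2.45 and -2.97), and NPF6.2 is starred and low in the xylem contrast (-2.44).

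NPF6.2, a nitrate transporter known from the leaf petiole in Arabidopsis and of the same subfamily as AT3G21670, was the NPF gene that fell in MYB50 knockout xylem. It read 58.5, 68.6 and 39.8 there, against 326.0, 411.5 and 370.4 in Col-0 xylem (log2 -2.44, SE 0.26, limma adjusted p = 4.44e-09). In cork it read 149.1, 159.5 and 162.9 in the MYB50 knockout, overlapping Col-0 at 144.6, 164.5 and 146.9. The MYB50 difference of NPF6.2 was itself larger in xylem than in cork (log2 -2.49, SE 0.36, limma adjusted p = 8.57e-06), whereas AT3G21670 was low in both. In max4 NPF6.2 went the opposite way from AT3G21670: it read 48.7, 57.4 and 52.1 in max4, against 100.4, 113.7 and 98.0 in Col-0 (log2 -0.80, SE 0.26, limma adjusted p = 0.0108). Like AT3G21670 it was higher in Ler than in Col-0 hypocotyl (log2 1.54, limma adjusted p = 6.09e-06) and in Col-0 xylem than in Col-0 cork (log2 1.19, limma adjusted p = 0.00034).

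Other NPF genes moved with AT3G21670 in some contrasts and against it in others. NPF2.10, a glucosinolate transporter also named GTR1, averaged 1228 in MYB50 knockout xylem and 431 in Col-0 xylem (log2 1.46, limma adjusted p = 0.00164), where AT3G21670 was low. In axr1 it rose as AT3G21670 did, averaging 1081 in axr1 and 293 in Col-0 hypocotyl (log2 1.83, limma adjusted p = 0.000178). NPF2.10 was uneven in MYB61 knockout xylem, at 287.8, 1390.6 and 276.1, with its high value on the same array that was high for NRT2.5. AT2G37900 fell in aba1 (log2 -1.47, limma adjusted p = 1.32e-07) as both transporters did, but fell in max4 too (log2 -1.06, limma adjusted p = 1.01e-05), where they rose. AT2G40460 rose in max4 with them (log2 1.47, limma adjusted p = 2.98e-09). NPF2.11, the glucosinolate transporter GTR2, was lower in max4 (log2 -0.60, limma adjusted p = 0.000192) and axr1 (log2 -0.40, limma adjusted p = 0.0108).

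Of 31 listed nitrate signalling genes, 3 had a named probe set and 2 passed the filter, AT1G68670 and AT1G25550. The annotation used here gives neither a name. Both rose in the MYB50 knockout, where 20.4% of all probe sets were higher in xylem and 21.3% in cork. AT1G68670 read 234.7, 285.4 and 256.1 in MYB50 knockout xylem, against 80.3, 95.9 and 101.3 in Col-0 xylem (log2 1.34, SE 0.14, limma adjusted p = 3.84e-09), and 326.4, 293.1 and 297.9 in knockout cork, against 80.2, 101.4 and 88.2 in Col-0 cork (log2 1.61, SE 0.14, limma adjusted p = 9.33e-11). AT1G25550 averaged 255 ± 34.9 in knockout xylem and 79.2 ± 3.44 in Col-0 xylem, and 115 ± 5.44 in knockout cork and 35.1 ± 9.02 in Col-0 cork (SD, n = 3 each), with log2 differences of 1.50 (limma adjusted p = 4.2e-09) and 1.37 (limma adjusted p = 2.5e-08).

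AT1G68670 ran opposite to both transporters over much of the series. It was 3.10-fold lower in max4 than in Col-0 hypocotyl (log2 -1.43, SE 0.14, limma adjusted p = 6.45e-10), where both transporters rose, and higher in aba1 than in Ler (log2 0.92, limma adjusted p = 6.75e-06), where both fell. It was lower in Ler than in Col-0 hypocotyl (log2 -0.76, limma adjusted p = 2.7e-05) and higher in Col-0 hypocotyl than in the Col-0 tissues (log2 1.08, limma adjusted p = 9.23e-09). The max4, Ler and tissue contrasts of AT1G68670 share the Col-0 hypocotyl arrays, so they are not independent. In axr1 it did not run opposite: AT1G68670 (488.1, 503.2 and 453.1, against 226.7, 185.0 and 221.7 in Col-0) rose there together with the transporters (log2 1.13, limma adjusted p = 1.26e-07). It also did not pass in abi1, where NRT2.5 fell (means of 110 in abi1 and 118 in Ler, limma adjusted p = 0.784), or between Col-0 xylem and cork, where AT3G21670 differed (log2 0.03, limma adjusted p = 0.873). Its correlation over the 12 group means was -0.82 with NRT2.5 and -0.76 with AT3G21670. Over the 18 hypocotyl arrays it was -0.69 and -0.71. Over the 18 tissue arrays it was -0.96 and -0.86, but over the 12 tissue arrays without the MYB50 knockout it was -0.545 with NRT2.5 and 0.212 with AT3G21670. These are descriptions of the same arrays and were not tested. AT1G25550 rose in all 4 hypocotyl mutants, whichever way the transporters lay: in abi1 (log2 1.03, limma adjusted p = 2.41e-05), in aba1 (2.05, limma adjusted p = 1.54e-11), in max4 (1.13, limma adjusted p = 5.19e-07) and in axr1 (1.68, limma adjusted p = 7.07e-10). Its correlation over the 18 hypocotyl arrays was -0.11 with NRT2.5 and 0.08 with AT3G21670. Over the 18 tissue arrays it was -0.79 and -0.45, and over the 12 without the MYB50 knockout -0.510 and 0.710.

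**Figure D5:**
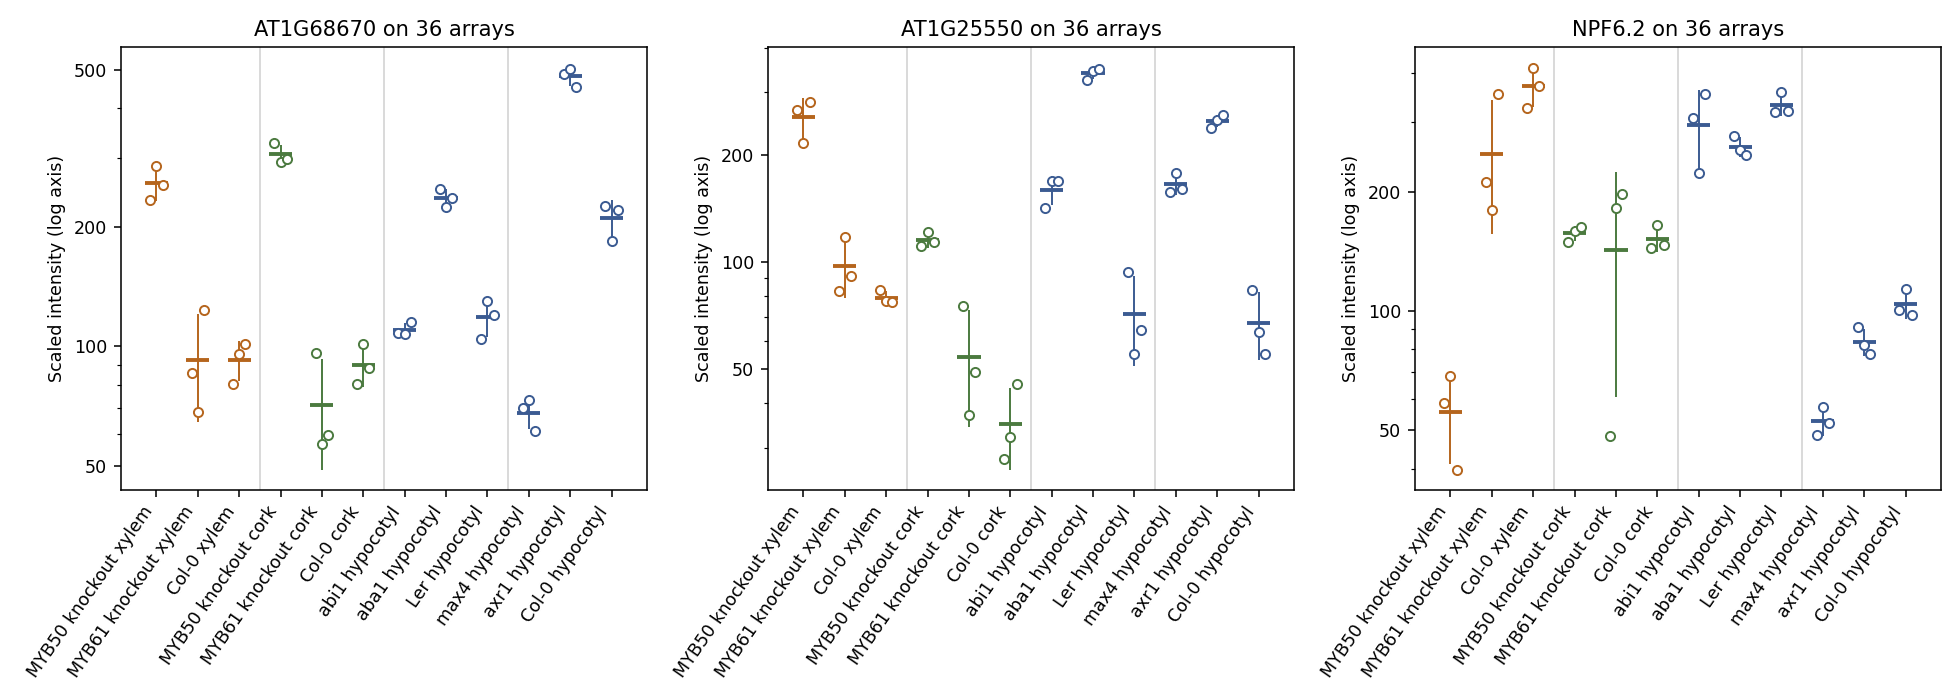
Scaled intensity (log axis) of AT1G68670, AT1G25550 and NPF6.2 on each array, with the group mean as a bar and 1 SD as a line. AT1G68670 is high in the MYB50 knockout tissues (means 259 and 306), aba1 (237), axr1 (481) and Col-0 hypocotyl (211) and lowest in max4 hypocotyl (68.1), and NPF6.2 is low in MYB50 knockout xylem (55.6) but not in MYB50 knockout cork (157).

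Of 8 senescence and nitrogen remobilisation genes 2 had a named probe set, PPDK and WRKY53, and both passed the filter. PPDK, pyruvate orthophosphate dikinase, fell where NRT2.5 was low in the tissues: it read 11.9, 22.8 and 17.7 in MYB50 knockout xylem, against 115.9, 118.2 and 114.6 in Col-0 xylem (6.65-fold lower, limma adjusted p = 3.77e-10), and 37.5, 54.5 and 30.8 in knockout cork, against 235.9, 247.4 and 257.5 in Col-0 cork (log2 -2.23, limma adjusted p = 3.46e-11). It was lower in aba1 than in Ler (log2 -1.11, limma adjusted p = 2.72e-05) and higher in Ler than in Col-0 hypocotyl (log2 2.23, limma adjusted p = 1.16e-11), as both transporters were. In max4 it did not follow them, at 29.2, 36.1 and 30.5, overlapping Col-0 at 27.0, 37.7 and 27.0. In axr1 PPDK was higher than in Col-0, as they were, at 72.9, 71.4 and 73.7. WRKY53, a senescence-linked transcription factor, rose in MYB50 knockout xylem (log2 1.07, limma adjusted p = 7.54e-05) and in aba1 (1.42, limma adjusted p = 2.64e-06). It also rose in max4 (0.98, limma adjusted p = 0.00019) and in abi1 (0.64, limma adjusted p = 0.0394). The transporters went both ways in these groups.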

How the data were processed

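Transcript levels were measured on 36 ATH1 arrays, 12 groups of 3. The deposited values are linear intensities, which the authors had scaled to a 2% trimmed mean of 100.01 on each array, as the values themselves show. Which software summarised the probes was not given in the sources used here. Genes were named through the platform's annotation and a RefSeq gene table (TAIR10.1): 13513 probe sets have 1 gene, 503 several and 8794 none. Sequences, promoters and coordinates were not used here, so the planned promoter motif search was not run.

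The 64 control probe sets were left out, and the 15924 of 22746 others with a mean intensity at or above the 30th percentile (14.7) were tested. Log2 of intensity plus 16 was fitted with limma 3.58.1 in R 4.3.3 (12 group means, moderated variance with trend, 24 residual degrees of freedom), two-sided, with Benjamini-Hochberg adjustment over all tested probe sets and a threshold of 0.05. The script was tested on simulated data. Exact permutation tests, correlations and figures used Python 3.11.15, numpy 2.4.6 and matplotlib 3.10.9.

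The genes and gene lists were chosen with earlier results of these data known. Named were both transporters, up to 6 called list genes per list and contrast, and the 10 genes most correlated with each transporter. Replicate numbers were not taken as pairs. Alternatives were the pseudocount, filter, quantile normalization, replicate block, array weights, scanner background, robust variance, fewer arrays in the fit and each array left out. Marker and MYB50 contrasts were handled as described beside their values.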

Additional observations from a re-analysis of the deposited data

How the results depend on the processing

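Of 434 recomputed values of tested differences, 413 kept their direction and side of the threshold, 12 kept the direction and changed side, and 9 turned. Of 184 recomputed values of the untested MYB50 knockout differences, 181 kept their direction, 18 of them moving by more than the spread between replicates, and 3 turned. NRT2.5 in abi1 was -0.64 with a pseudocount of 1 and -0.68 to -0.54 with arrays left out, and lost its call as given above. NRT2.5 in Col-0 xylem against cork passed with a pseudocount of 64 (-0.39), the filter at the 50th percentile (-0.44), quantile normalization (-0.47) and array weights (-0.46), and was -0.62 to -0.27 with arrays left out. In the MYB61 knockout the same difference was -0.44 with array weights (called) and -0.56 to -0.081 with arrays left out. In the MYB50 knockout it turned to 0.038 with quantile normalization and 0.12 with array weights, and was -0.18 to 0.17 with arrays left out. With arrays left out, the MYB61 xylem difference of NRT2.5 was -0.36 to 0.12, the MYB61 cork difference of AT3G21670 -0.10 to 0.23, and the difference of MYB61 effects -0.12 to 0.36 for NRT2.5 (-0.066 with the background covariate) and -0.022 to 0.31 for AT3G21670. The causes were not tested.

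The MYB50 knockout values moved with the pseudocount. With 1 and 64 in place of 16, NRT2.5 was -3.25 and -1.98 in xylem and -3.61 and -2.35 in cork. AT3G21670 was -3.30 and -2.31 in cork and, with 64, -2.18 in xylem (-2.59 to -2.25 with arrays left out). Its difference of MYB50 effects was 0.75 and 0.12 (0.38 to 0.72 with arrays left out). Its xylem against cork difference in the MYB50 knockout was 1.75 and 1.05 (1.37 to 1.71 with arrays left out). The MYB61 knockout minus the MYB50 knockout was 3.26 and 2.02 for NRT2.5 and 3.04 and 2.36 for AT3G21670. This follows from the pseudocount damping dim values.

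Replicate numbers did not pair samples: of 63 same-numbered pairs 11 correlated above 0.1, with a median of 0.01. With the replicate block no call changed for either gene (NRT2.5 in abi1 -0.61, in Col-0 xylem against cork -0.44).

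Counts over all probe sets changed by over 1.5 times in some contrasts. For abi1 against Ler 1661 became 3219 with array weights, 1018 with those groups' arrays alone, and 1102, 1066 and 940 without Ler replicate 2, Ler replicate 3 or abi1 replicate 2. For aba1 4317 became 6892 with weights. For MYB61 xylem 299 became 39 with those arrays alone and 193 and 174 without Col-0 xylem replicate 3 or MYB61 knockout xylem replicate 2. For MYB61 cork 1274 became 489 with the background covariate, 230 with those arrays alone, and 780 and 774 without Col-0 cork replicate 1 or 2. For the difference of MYB61 effects 18 became 10 with the stricter filter, 200 with weights, 6 with the background covariate, 3 with those arrays alone and 6 to 150 with arrays left out. For MYB61 xylem against cork 5388 became 3438 with those arrays alone.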
